A study of Mus musculus with 6 samples.

Results

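Dendritic cells are the leukocytes that take up antigen, carry it to lymph nodes and present it to T cells, and they are sparse in the healthy brain. The genes described here are 10 dendritic cell and maturation genes (Ccl22, Ccl17, Fscn1, Cd83, Flt3, Zbtb46, Xcr1, Clec9a, Batf3 and Siglech), taken by symbol from the 51361 genes of a bulk RNA-seq count table of sorted regulatory T cells (Tregs). They cover the chemokines and cytoskeletal and surface proteins of mature dendritic cells, the growth factor receptor and transcription factor of conventional dendritic cells, the receptors of the type 1 subset, and a lectin of plasmacytoid dendritic cells. None of them is used as a Treg marker, although activated T cells can make some, Cd83 and Batf3 among them. Microglia, the resident macrophages of the brain, are known to express Siglech and, on activation, Cd83.

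The study asked how Tregs from the injured brain differ from those in blood. The 3 groups were tMCAO brain, tMCAO blood and sham blood, with 2 libraries each. All 6 came from young male mice of the C57BL/6N background, 9 weeks old, that carried the Tg(Foxp3-DTR/EGFP)23.2Spar transgene, in which Foxp3 regulatory sequence drives a diphtheria toxin receptor fused to green fluorescent protein. The tMCAO mice had a transient occlusion of the middle cerebral artery, lasting 60 min, a model of ischaemic stroke, and cells were taken 14 days later. Sham mice had a sham operation, and no sham brain library was among the 6. CD4+CD25+Foxp3+ cells were sorted by flow cytometry, 500 to 1000 per library. The labels do not say whether a group's libraries are from separate mice or from pools, so p-values measure only the spread between these libraries. Brain and blood also differ in how cells must be freed from the tissue. The injury, the site and that handling cannot be told apart in the brain libraries.

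Library totals ran from 14348179 to 24460894 counts. The libraries did not all match their label as Tregs. Foxp3, the defining Treg transcription factor, had 0.726 and 19.6 CPM in the brain libraries and 0.538 and 5.18 CPM in the tMCAO blood libraries, against 50.1 and 60.7 CPM in the sham libraries. CPM are counts scaled to a common library size after adjustment by the trimmed mean of M-values (TMM). The 12 T cell markers summed to 0.0249% and 0.125% of all counts in the brain libraries, 0.0540% and 0.368% in the libraries of tMCAO blood, and 0.698% and 0.668% in the sham libraries. Library 1 of tMCAO brain and of tMCAO blood were the lowest, and the calls of the 10 genes are also given without both of them.

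Promoter sequence is shown first for the 3 genes whose counts in blood lay at or near 0 or differed most between libraries, the chemokine genes Ccl22 and Ccl17 and the actin-bundling gene Fscn1. The lines give the 250 bases before the start, 5′ to 3′ on the coding strand, from RefSeq on GRCm38.p6. Capitals mark TTAAATA in both chemokine genes, and TGACGTCA followed by TATAAA in Fscn1. These 3 motifs were added to the search after the sequences had been read.
Ccl22, chr8:94745434-94745683, plus strand: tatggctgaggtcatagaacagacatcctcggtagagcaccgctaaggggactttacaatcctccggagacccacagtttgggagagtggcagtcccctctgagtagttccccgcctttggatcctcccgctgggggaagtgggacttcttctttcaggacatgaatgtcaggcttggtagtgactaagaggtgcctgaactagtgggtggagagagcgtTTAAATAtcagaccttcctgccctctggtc
Ccl17, chr8:94810203-94810452, plus strand: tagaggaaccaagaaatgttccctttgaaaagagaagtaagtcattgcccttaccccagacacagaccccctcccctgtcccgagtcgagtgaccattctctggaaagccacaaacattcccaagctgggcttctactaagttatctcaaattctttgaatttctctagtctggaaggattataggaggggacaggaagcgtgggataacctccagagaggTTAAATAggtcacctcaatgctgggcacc
Fscn1, chr5:142960105-142960354, plus strand: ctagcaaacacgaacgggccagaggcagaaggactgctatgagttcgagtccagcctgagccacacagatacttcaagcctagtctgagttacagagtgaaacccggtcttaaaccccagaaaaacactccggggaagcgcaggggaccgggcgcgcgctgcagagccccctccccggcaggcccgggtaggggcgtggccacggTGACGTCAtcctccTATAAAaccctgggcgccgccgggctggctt

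The TTAAATA run lay 30 to 24 bases before the start of Ccl22 and 29 to 23 bases before that of Ccl17, nearly the same place in the 2 genes. It was found in 4.18% of 32851 mouse promoters of the same length, counting both strands. In Fscn1, TATAAA lay 31 to 26 bases before the start, and 12.4% of promoters held it. The cyclic AMP response element TGACGTCA lay 45 to 38 bases before that start, and 1.55% of promoters held it. These distances are from the RefSeq starts. The GENCODE M21 annotation places the start of Ccl22 94 bases and that of Fscn1 12 bases upstream of the RefSeq one, so the ends of these 2 windows, with the TTAAATA of Ccl22, lie inside the GENCODE spans. The planned motifs were AP-1 (TGANTCA), PU.1 (GAGGAAG), the NF-kB consensus and the interferon regulatory factor core (GAAANNGAA), on both strands. They were found in 6.75%, 10.6%, 3.9% and 7.13% of all promoters. Of the 9 genes with a promoter entry, Zbtb46 held AP-1 and Batf3 held PU.1. Both of those windows lie wholly inside the GENCODE spans, downstream of the GENCODE starts. The Zbtb46 window is chr2:181424389-181424638, minus strand, against a GENCODE start at 181459426. For Batf3 it is chr1:191098164-191098413, plus strand, against a start at 191097847. A match is only a match of letters.

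All 10 genes are protein-coding, and their positions below are those of GENCODE M21 on GRCm38. In the brain libraries, 9 of the 10 genes averaged above the tMCAO blood level, and 5 passed the test: Cd83, Siglech, Flt3, Fscn1 and Ccl22. The test was edgeR's quasi-likelihood test with Benjamini-Hochberg adjustment over all 16657 genes that passed the low-count filter, fitted on all 6 libraries, with an adjusted p under 0.05 as the threshold. Of all genes tested, 3.53% were higher in tMCAO brain by this rule. All 10 genes passed the filter, but Fscn1 and Ccl22 reached 10 counts only in brain libraries, so passing already meant a difference for them. The median log2 change was 5.35 over the 10 genes and 0.06 over all genes tested. In a bulk sample, more cells that carry a transcript and more of it per cell cannot be told apart.

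**Figure D1:**
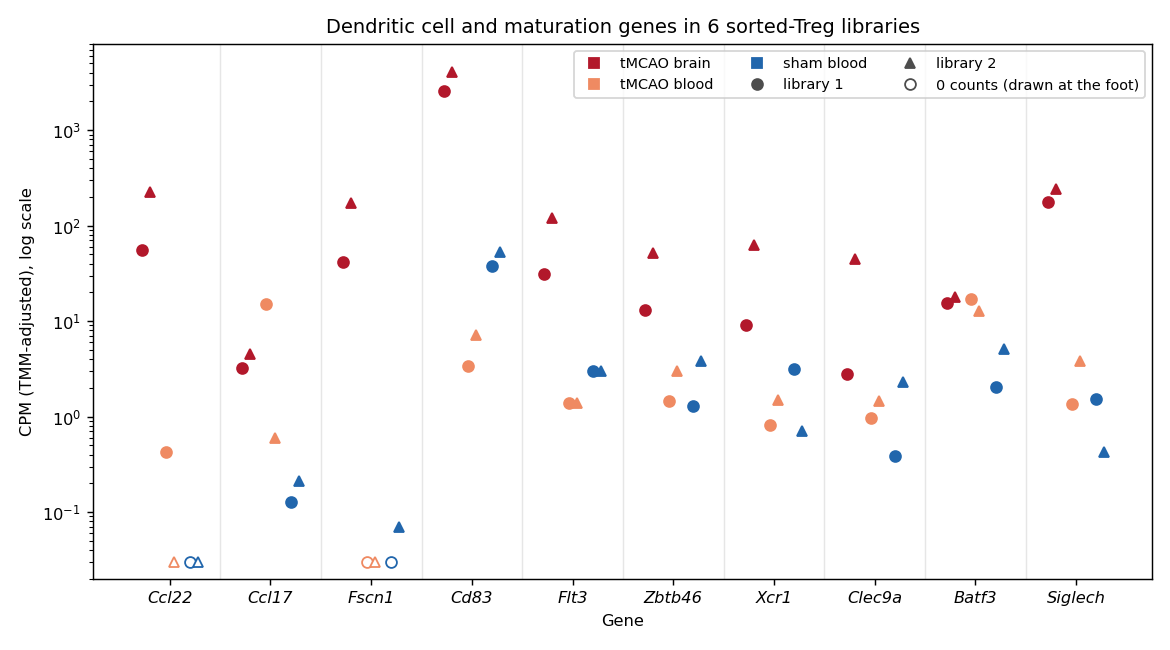
CPM (TMM-adjusted, log scale) of each gene in the 6 libraries, with tMCAO brain in red, tMCAO blood in orange and sham blood in blue, a circle for library 1, a triangle for library 2, and open symbols at the foot for 0 counts. For Cd83 the brain libraries sit at 2554 and 4117 CPM, above both blood groups, whereas for Batf3 tMCAO brain and tMCAO blood overlap.

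Ccl22, on chromosome 8 (94745590 to 94751699, plus strand, GRCm38), encodes a chemokine of mature dendritic cells and macrophages that attracts Tregs and other T cells through the receptor Ccr4. It had 55.1 and 227.6 CPM in the brain libraries, 0.431 and 0 CPM in the libraries of tMCAO blood, and 0 CPM in both sham libraries. Transcripts were thus plain in both brain libraries and amounted in blood to 8 counts in a single library, library 1 of tMCAO blood. Fits without that library have 0 counts in tMCAO blood, where a fitted log2 change is no bound. The pooled ratio of tMCAO brain to tMCAO blood was 764, with an exact 95% counting interval of 387 to 1770, and edgeR gave a log2 change of 9.35 ± 1.40 (SE, adjusted p = 0.0348). The call was lost without any 1 of the 6 libraries and with only the 2 groups fitted (adjusted p over 12 alternatives from 3.99e-52 to 0.0775), while the log2 change ran from 7.98 to 15.02. It was made without library 1 of both tMCAO groups.

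Ccl17, the other chemokine that signals through Ccr4, lies 58753 bases downstream of Ccl22 (chromosome 8, 94810453 to 94812036, plus strand) and did not share its pattern. It had 3.27 and 4.53 CPM in the brain libraries, 15.3 and 0.598 CPM in the libraries of tMCAO blood, and 0.128 and 0.211 CPM in the sham libraries. The highest level was in library 1 of tMCAO blood, and the brain libraries lay between the 2 tMCAO blood libraries. Against tMCAO blood, the brain log2 change was −1.02 ± 1.25 (edgeR, adjusted p = 0.624). Without library 1 of tMCAO blood it was 2.69, so 1 library set its direction, and neither value passed. Cx3cl1, the chemokine gene that lies between them and was looked at after these values were seen, had 1.63 and 7.07 CPM in tMCAO brain and 0 in all 4 blood libraries. Ccr4, also looked at afterwards, had 1.82 and 14.4 CPM in the brain libraries, 1.67 and 6.73 CPM in the libraries of tMCAO blood, and 49.3 and 30.1 CPM in the sham libraries. The libraries with Ccl22 transcripts were therefore not those with the most receptor transcript.

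Fscn1, on chromosome 5 (142960343 to 142973185, plus strand), encodes fascin, which bundles actin in the long processes of mature dendritic cells. It had 41.1 and 172 CPM in the brain libraries, 0 CPM in both tMCAO blood libraries, and 0 and 0.0704 CPM in the sham libraries. All but 1 of its counts were in the brain libraries, with 680 and 4207. Against the floor of 3 counts over the group, Fscn1 in tMCAO brain was at least 1535-fold higher than in tMCAO blood (edgeR, adjusted p = 0.0223). The call was lost without either tMCAO blood library, without either sham library and with only the 2 groups fitted (adjusted p over 12 alternatives from 6.23e-58 to 0.0641).

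Cd83, an immunoglobulin-like surface protein that marks maturation and keeps MHC class II and CD86 on the cell surface, lies on chromosome 13 (43784775 to 43803132, plus strand) and was by far the most abundant of the 10. It had 2554 and 4117 CPM in the brain libraries, 3.39 and 7.08 CPM in the libraries of tMCAO blood, and 37.4 and 53.2 CPM in the sham libraries. The 3 groups did not overlap, with brain highest and tMCAO blood lowest. The log2 change of tMCAO brain against tMCAO blood was 9.31 ± 0.70, a 636-fold difference (edgeR, adjusted p = 0.0111). It was the only gene of the 10 called under all 12 alternatives, where its log2 change stayed between 8.88 and 9.96 and its adjusted p ran from 4.67e-71 to 0.045. Cd83 gave 88.1% and 81.3% of the summed counts of the 10 genes in the brain libraries, 8.02% and 22.3% in those of tMCAO blood, and 76.4% and 77.2% in the sham libraries.

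Flt3, the receptor for the growth factor that dendritic cell precursors need (chromosome 5, 147330741 to 147400489, minus strand), had 30.9 and 121 CPM in the brain libraries, 1.40 CPM in each tMCAO blood library, and 3.02 and 3.03 CPM in the sham libraries. Both brain libraries were far above all 4 blood libraries. Flt3 overlaps the antisense gene Gm26597, and with the strand setting unknown their reads cannot be told apart. The log2 change of tMCAO brain against tMCAO blood was 5.76 ± 0.74 (edgeR, adjusted p = 0.0223). The call was lost without either tMCAO blood library, without either sham library and with only the 2 groups fitted (adjusted p over 12 alternatives from 1.63e-25 to 0.0706). Without library 2 of tMCAO brain it was still made, at a log2 change of 4.46. Its ligand Flt3l, looked at after the values were seen, had 4.96 and 10.7 CPM in the brain libraries, 9.96 and 30.5 CPM in the libraries of tMCAO blood, and 49.4 and 52.2 CPM in the sham libraries. Brain and tMCAO blood overlapped for Flt3l, with a log2 change of −1.37 ± 0.61 that did not pass (edgeR, adjusted p = 0.203).

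Zbtb46, a zinc finger transcription factor that marks conventional dendritic cells among immune cells (chromosome 2, 181387762 to 181459426, minus strand), had 13.1 and 51.9 CPM in the brain libraries, 1.45 and 3.04 CPM in the libraries of tMCAO blood, and 1.28 and 3.80 CPM in the sham libraries. Both brain libraries lay above all blood libraries, but they differed 3.97-fold from each other. The log2 change of tMCAO brain against tMCAO blood, 3.85 ± 0.91, did not pass (edgeR, adjusted p = 0.0636). It passed in 4 of 12 alternatives, among them the DESeq2 Wald test and the fit without library 1 of both tMCAO groups, with adjusted p from 7.65e-09 to 0.168.

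Xcr1 and Clec9a are receptors of type 1 conventional dendritic cells, the subset that presents antigen from dead cells to CD8 T cells. Xcr1, the receptor for the chemokine Xcl1 (chromosome 9, 123852315 to 123862029, minus strand), had 9.08 and 62.4 CPM in the brain libraries, 0.808 and 1.49 CPM in the libraries of tMCAO blood, and 3.15 and 0.704 CPM in the sham libraries. Clec9a, which binds actin exposed on dead cells (chromosome 6, 129408862 to 129424763, plus strand), had 2.78 and 44.9 CPM in the brain libraries, 0.969 and 1.45 CPM in the libraries of tMCAO blood, and 0.385 and 2.32 CPM in the sham libraries. For both receptors library 2 of tMCAO brain stood far above the rest, and for Clec9a library 1 of tMCAO brain was close to the highest blood library. For Xcr1 the brain value exceeded that of tMCAO blood by 4.95 ± 1.19 on the log2 scale (edgeR, adjusted p = 0.0657). For Clec9a it was 4.30 ± 1.44 (edgeR, adjusted p = 0.119). Without library 2 of tMCAO brain the Clec9a change was 1.20 on the log2 scale, the lowest of its 12 alternatives. The span of Clec9a shares 474 bases with Clec1b, a lectin gene of platelets on the same strand, so some counts could belong to either. Clec1b, looked at for this reason after the values were seen, had 3.33 and 2.49 CPM in the brain libraries, 17.0 and 49.8 CPM in the libraries of tMCAO blood, and 100 and 127 CPM in the sham libraries, so it was lowest in the brain libraries, where Clec9a was highest.

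Batf3, the transcription factor on which type 1 conventional dendritic cells depend in mice (chromosome 1, 191097847 to 191108945, plus strand), did not follow the receptors of that subset. It had 15.6 and 17.7 CPM in the brain libraries, 17.2 and 12.9 CPM in the libraries of tMCAO blood, and 2.05 and 5.14 CPM in the sham libraries. Brain and blood of tMCAO mice overlapped, and both lay above sham blood. Between brain and blood of tMCAO mice, the log2 change was 0.14 ± 0.50 (edgeR, adjusted p = 0.876).

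Siglech, a sialic acid binding lectin used as a marker of plasmacytoid dendritic cells and also expressed by microglia (chromosome 7, 55768178 to 55778925, plus strand), had 175 and 244 CPM in the brain libraries, 1.35 and 3.84 CPM in the libraries of tMCAO blood, and 1.54 and 0.422 CPM in the sham libraries. The brain libraries were close to each other and far above all 4 blood libraries. Siglech had a log2 change of tMCAO brain against tMCAO blood of 6.33 ± 0.77 (edgeR, adjusted p = 0.0215). The call was lost without library 2 of tMCAO brain, without library 1 of tMCAO blood, without either sham library and with only the 2 groups fitted (adjusted p over 12 alternatives from 1.77e-35 to 0.0548). The 12 microglia markers were also highest in the brain libraries, where they summed to 0.942% and 0.946% of counts. The sums were 0.0722% and 0.0798% in the libraries of tMCAO blood, and 0.0316% and 0.0409% in the sham libraries. In tMCAO blood Csf1r alone gave 10069 of 13945 and 9468 of 13291 counts of the list. Between the blood groups the markers were mixed, with 6 of 12 at a log2 change above 0 in tMCAO blood against sham blood. Against tMCAO blood, 9 of these 12 were higher in the brain libraries (edgeR), beside 3.53% of all genes tested, and of the 9 Sall1 and Slc2a5 reached 10 counts only in brain libraries. Sall1, a transcription factor that defines microglia, had 0 counts in all 4 blood libraries. Their part in the Siglech and Cd83 results was not tested.

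**Figure D2:**
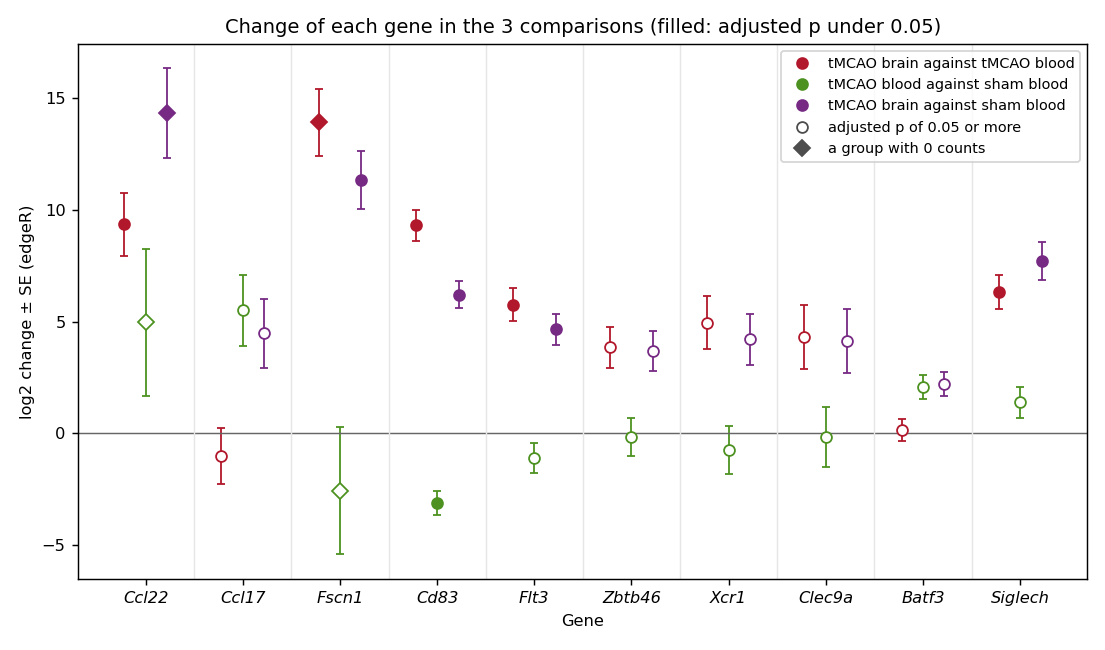
log2 change ± SE (edgeR) of each gene in the 3 comparisons, with filled symbols for an adjusted p under 0.05 and diamonds where a group had 0 counts, so that the fitted value is no bound. Tests of tMCAO brain against either blood group were filled for the same 5 genes, Ccl22, Fscn1, Cd83, Flt3 and Siglech, and that of tMCAO blood against sham blood for Cd83.

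All brain values of 8 genes lay above all tMCAO blood values, the exceptions being Ccl17 and Batf3. By that looser rule 31.4% of all genes tested were higher. DESeq2 called 8 of the 10 genes higher, beside 12.5% of all genes tested. The fit without library 1 of both tMCAO groups, an alternative chosen after the data were seen, also called 8, beside 10.2% of all genes tested.

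All 10 genes were higher in library 2 of tMCAO brain than in library 1, but by very different factors. The ratio was 1.13 for Batf3, 1.39 for Ccl17, 1.39 for Siglech and 1.61 for Cd83. It was 3.92 for Flt3, 3.97 for Zbtb46, 4.13 for Ccl22 and 4.18 for Fscn1, which thus lay within a narrow band. For the type 1 receptors it was 6.87 for Xcr1 and 16.2 for Clec9a. The summed level of T cell markers in library 2 was 4.16 times that in library 1, with ratios of 11.2 for the 10 B cell markers and 49 for the 6 NK cell markers. The microglia list had a ratio of 0.835, the 12 monocyte and macrophage markers 0.286 and the neutrophil markers 0.121. Related lists described below had summed ratios of 1.19 for type 1, 0.872 for type 2 and 0.789 for plasmacytoid dendritic cells. The ratio was 1.38 for maturation and 0.578 for partners. Of genes with a ratio, 9 of 12 type 1, 6 of 12 type 2, 9 of 13 plasmacytoid and 17 of 22 maturation genes were higher in library 2. The part of other cell types in the spread between the brain libraries was not tested.

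**Figure D3:**
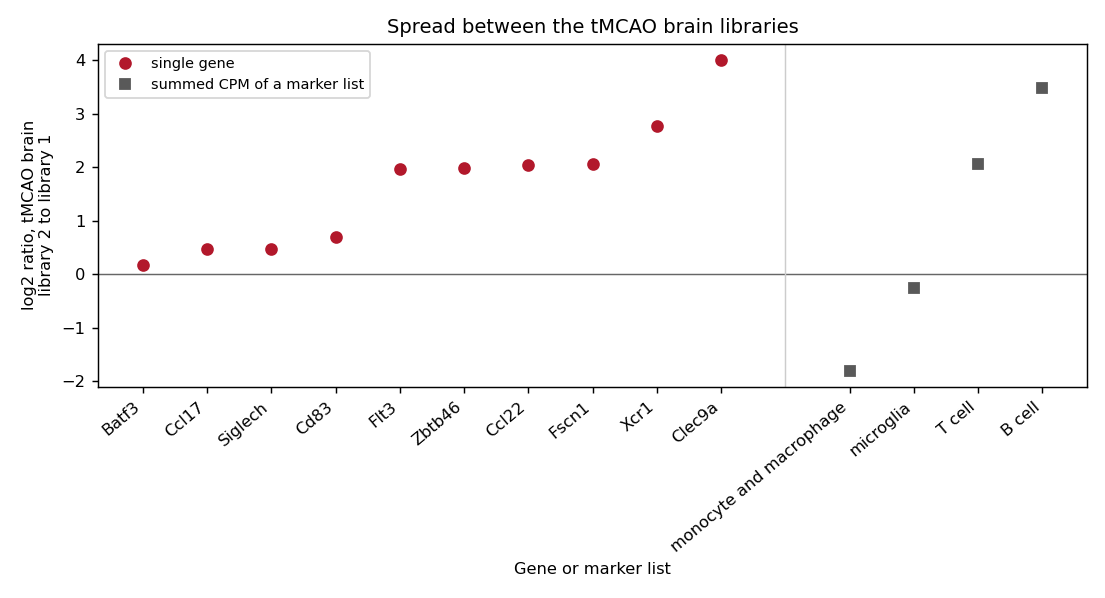
log2 ratio of library 2 to library 1 of tMCAO brain for each gene (red circles) and for the summed CPM of 4 marker lists (grey squares), with a line at no difference. All 10 genes lie above the line, with Flt3, Zbtb46, Ccl22 and Fscn1 near the T cell list, while the monocyte and macrophage list and the microglia list lie below it.

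Levels were compared between genes per kilobase of exon. In tMCAO brain Cd83 averaged 1297 ± 430 CPM per kilobase (SD, n = 2), and its lower library was above every value of the other genes. Siglech averaged 62.0 ± 14.4, Ccl22 60.8 ± 52.5 and Fscn1 35.4 ± 30.7 CPM per kilobase, and these 3 overlapped. Flt3, Batf3, Xcr1, Ccl17, Clec9a and Zbtb46 averaged between 3.82 and 12.3 CPM per kilobase, and neighbours in that order overlapped. In tMCAO blood the order was different, with Ccl17 at 15.5 ± 20.2, Batf3 at 9.43 ± 1.91 and Cd83 at 2.04 ± 1.01 CPM per kilobase, and the other 7 genes below these. In sham blood Cd83 averaged 17.6 ± 4.36 and Batf3 2.25 ± 1.37 CPM per kilobase, and the remaining 8 genes averaged below 0.5.

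The comparison of tMCAO blood with sham blood sets the sorted blood libraries of operated and sham mice side by side. These libraries also differed in the shares of T cell and red cell transcripts. Stroke and the make-up of the sorted samples therefore cannot be told apart. Cd83 fell in tMCAO blood, the only call among the 10, and edgeR called no gene of the 10 higher, with 2 at an unadjusted p under 0.05 and 2 called by DESeq2, which called 12.4% of all genes higher. Among all genes tested, 3.15% were lower and 4.33% higher by edgeR at an adjusted p under 0.05. In either direction, 4938 of the 16657 genes tested had an unadjusted p under 0.05 (edgeR). Ccl17 and Batf3 were higher in both tMCAO blood libraries than in both sham libraries without passing the test. By that looser rule 33.6% of all genes tested were higher. Without library 1 of both tMCAO groups, Cd83 was lower and Siglech higher, beside 10.1% of all genes lower and 11.4% higher.

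Cd83 had a log2 change of −3.11 ± 0.53, an 8.63-fold lower level in tMCAO blood (edgeR, adjusted p = 0.0351). The call was lost without library 1 of tMCAO blood or either sham library, and held in the other 9 of 12 alternatives (log2 change from −3.79 to −2.63, adjusted p from 1.07e-08 to 0.241). For Ccl17 the log2 change was 5.50 ± 1.60 (edgeR, adjusted p = 0.0832). It was 1.78 without library 1 of tMCAO blood, the lowest of 12 alternatives, and 3 of the 12 called it. For Batf3 the change was 2.07 ± 0.53 on the log2 scale, a 4.19-fold higher level (edgeR, adjusted p = 0.0639), and 2 of 12 alternatives called it, with adjusted p from 0.00453 to 0.235.

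Flt3 was lower in both tMCAO blood libraries than in both sham libraries, with a log2 change of −1.11 ± 0.66 that did not pass (edgeR, adjusted p = 0.302). Siglech, Zbtb46, Xcr1 and Clec9a lay at a few CPM in all 4 blood libraries, with adjusted p between 0.242 and 0.954 (edgeR). For Fscn1, with 1 count in sham blood and 0 in tMCAO blood, no difference was detectable at this depth. Ccl22 had 8 counts in library 1 of tMCAO blood and 0 in the other 3 blood libraries, at least 2.06-fold higher against the floor of 3 counts (edgeR, adjusted p = 0.36). The median log2 change over the 10 genes was −0.16, against 0.11 over all genes tested. T cell markers, given above, also took a smaller share of counts in the tMCAO blood libraries (0.0540% and 0.368%) than in the sham libraries (0.698% and 0.668%). Their part in the Cd83 result was not tested.

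Against sham blood, the brain libraries were higher for all 10 genes, with no overlap for any of them. By that rule 34.9% of all genes tested were higher. Ccl22, Fscn1, Cd83, Flt3 and Siglech passed the test, the 5 that also passed against tMCAO blood. Of all genes tested, 8.01% were higher than in sham blood. As above, Fscn1 and Ccl22 passed the low-count filter only through the brain libraries. The tMCAO brain libraries enter both comparisons, so the 2 results are not independent. The median log2 change was 4.56 over the 10 genes and 0.09 over all genes tested.

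Siglech had the log2 change 7.72 ± 0.84 (edgeR, adjusted p = 0.00994). For Cd83 it was 6.20 ± 0.61, a 73.7-fold difference (edgeR, adjusted p = 0.00914). Sham blood held more Cd83 than tMCAO blood, so the difference was smaller than in the previous comparison of brain with tMCAO blood. Flt3 changed by 4.65 ± 0.70 on the log2 scale (edgeR, adjusted p = 0.0172). Fscn1 counts gave a ratio of 3550 with an exact 95% counting interval of 637 to 140300 (edgeR, adjusted p = 0.0144). Ccl22 was at least 1570-fold higher (edgeR, adjusted p = 0.0197). All 5 calls were lost without either sham library, where edgeR called no gene of the table, with 3242 and 3075 genes at an unadjusted p under 0.05, and adjusted p reached 0.137 for Flt3. They held under the other 10 alternatives.

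Among the other 5 genes, the log2 change against sham blood was 2.21 ± 0.53 for Batf3 (edgeR, adjusted p = 0.0504). It was 3.68 ± 0.90 for Zbtb46 (adjusted p = 0.0535) and 4.21 ± 1.14 for Xcr1 (adjusted p = 0.0661). For Clec9a and Ccl17 it was 4.14 ± 1.44 and 4.48 ± 1.55, each with an adjusted p of 0.114 (edgeR). DESeq2, the fit with no filter on low counts and the fit without library 1 of both tMCAO groups called all 10 genes higher, beside 15.6%, 10.3% and 15.8% of all genes tested in them.

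Related genes were read from 5 further lists: type 1 conventional, type 2 conventional and plasmacytoid dendritic cells, maturation, and partners of the 10 genes. The maturation list held the most calls for tMCAO brain against tMCAO blood, with 10 of 21 tested genes higher by edgeR and a median log2 change of 2.70, beside 3.53% of all genes tested. Of the 10 called, Cacnb3, Il12b and Apol7c reached 10 counts only in brain libraries and so passed the filter through the group where they were high. The counts higher were 3 of 12 for type 1, 2 of 12 for type 2, 2 of 14 for plasmacytoid genes and 1 of 11 for partners. DESeq2 called 17 maturation genes higher, beside 12.5% of all genes tested. Without library 1 of both tMCAO groups the counts higher were 18 for maturation and 6, 5, 5 and 4 for the other lists, beside 10.2% of all genes tested. edgeR called no gene of the 5 lists lower, beside 1.37% of all genes tested, and DESeq2 called none lower. At an unadjusted p under 0.05 (edgeR), 1 type 1 gene and 1 partner were lower. In either direction, 4671 of the 16657 genes tested passed that unadjusted threshold. The median log2 changes of the type 1, type 2, plasmacytoid and partner lists were 1.11, 0.38, 1.68 and 0.31, against 0.06 over all genes tested.

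**Figure D4:**
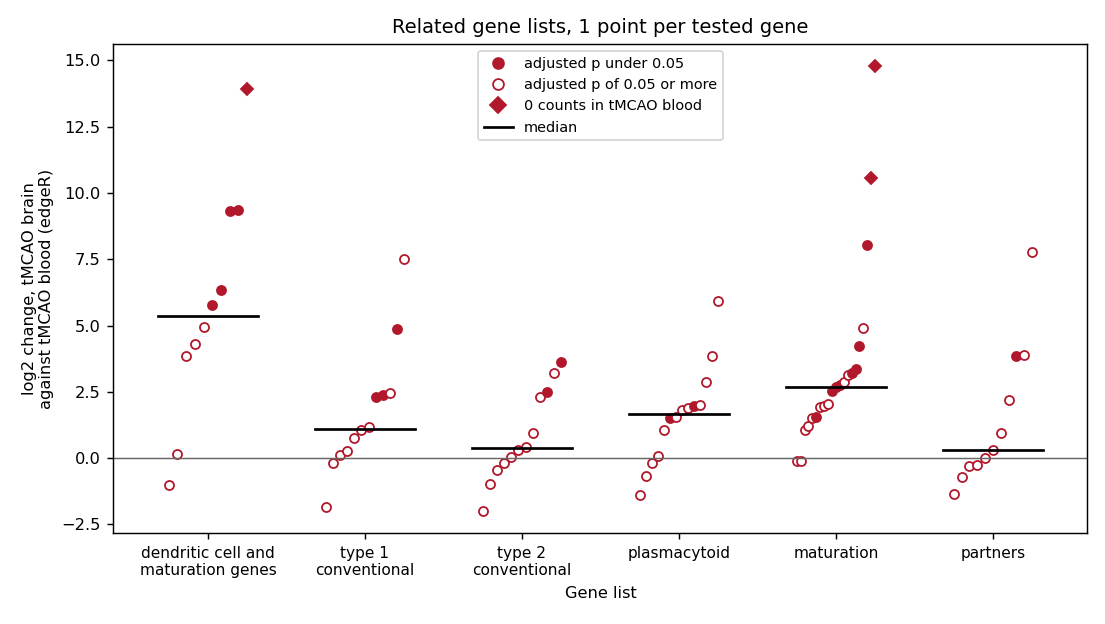
log2 change (edgeR) of tMCAO brain against tMCAO blood for each tested gene of the 10 and of the 5 related lists, filled where the adjusted p was under 0.05, diamonds where tMCAO blood had 0 counts, and a bar at each list's median. The maturation list has a median of 2.70 and 10 filled genes, and the type 2 and partner lists have medians near 0.

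In the maturation list, Cacnb3, a calcium channel subunit used as a marker of mature dendritic cells, had 54.3 and 113 CPM in the brain libraries, 0.323 and 0.299 CPM in the libraries of tMCAO blood, and 0.0642 and 0.422 CPM in the sham libraries. Its log2 change against tMCAO blood was 8.04 ± 0.77 (edgeR, adjusted p = 0.0148). Relb, an NF-kB subunit of dendritic cell maturation, had 106 and 122 CPM in the brain libraries, 8.61 and 13.3 CPM in the libraries of tMCAO blood, and 30.0 and 41.3 CPM in the sham libraries. It rose in tMCAO brain against tMCAO blood and fell in tMCAO blood against sham blood (log2 changes of 3.38 ± 0.35 and −1.70 ± 0.33, edgeR, adjusted p = 0.0167 and 0.0402), the order of groups that Cd83 had. Cd86, a costimulatory ligand also made by macrophages and microglia, had 468 and 380 CPM in the brain libraries, 78.2 and 47.9 CPM in the libraries of tMCAO blood, and 37.0 and 39.5 CPM in the sham libraries, with a log2 change of 2.75 ± 0.35 against tMCAO blood (edgeR, adjusted p = 0.0223). Marcksl1, an actin-binding protein, changed by 2.70 ± 0.41 on the log2 scale (edgeR, adjusted p = 0.0293). Ccr7, the receptor that takes mature dendritic cells and naive T cells to lymph nodes, was looked at after its values were seen. It had 589 and 746 CPM in the brain libraries, 3.61 and 41.1 CPM in the libraries of tMCAO blood, and 492 and 675 CPM in the sham libraries, so brain and sham blood overlapped.

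The called type 1 genes included Irf8, a transcription factor of type 1 and plasmacytoid dendritic cells that microglia and monocytes share. It had 409 and 404 CPM in the brain libraries, 90.7 and 72.1 CPM in the libraries of tMCAO blood, and 26.3 and 33.6 CPM in the sham libraries. Its log2 change against tMCAO blood was 2.32 ± 0.30 (edgeR, adjusted p = 0.0223). Cadm1, an adhesion molecule of type 1 dendritic cells, had 84.9 and 88.6 CPM in the brain libraries, 2.80 and 3.19 CPM in the libraries of tMCAO blood, and 0.642 and 0 CPM in the sham libraries (log2 change 4.85 ± 0.80 against tMCAO blood, edgeR, adjusted p = 0.0338). Its brain libraries were close to each other, unlike those of Xcr1 and Clec9a. Ppt1, a lysosomal thioesterase, had a log2 change of 2.39 ± 0.39 (edgeR, adjusted p = 0.0333).

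Of the type 2 list, the lectin gene Cd209a had 61.8 and 65.9 CPM in the brain libraries, 3.82 and 6.38 CPM in the libraries of tMCAO blood, and 15.4 and 16.0 CPM in the sham libraries, with a log2 change of 3.64 ± 0.36 against tMCAO blood (edgeR, adjusted p = 0.0151). Itgax, which encodes the integrin CD11c of dendritic cells and some macrophages, had a log2 change of 2.50 ± 0.42 (edgeR, adjusted p = 0.0343). The plasmacytoid list gave Tcf4, the transcription factor that specifies that lineage, at 1.51 ± 0.29 (edgeR, adjusted p = 0.0447), and the interferon regulator Irf7 at 1.98 ± 0.33 (edgeR, adjusted p = 0.0341). The other 12 plasmacytoid genes did not pass. Among partners, Jun, which forms AP-1 dimers with Batf proteins, had a log2 change of 3.85 ± 0.78 (edgeR, adjusted p = 0.0494). The Xcr1 ligand Xcl1, looked at after its values were seen, had 2.66 and 65.6 CPM in the brain libraries, 1.51 and 13.6 CPM in the libraries of tMCAO blood, and 0.513 and 1.41 CPM in the sham libraries. Like Xcr1, it was highest in library 2 of tMCAO brain, where all 10 genes were higher than in library 1.

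For tMCAO blood against sham blood, the lists gave 4 higher and 1 lower of 12 type 1 genes, 2 and 2 of 12 type 2 genes, 1 and 1 of 14 plasmacytoid genes, 1 and 2 of 21 maturation genes, and 4 and 0 of 11 partners, beside 4.33% higher and 3.15% lower over all genes tested. The counts of 1 or 2 in a list are too few to be read against those shares. Their median log2 changes were 2.20, 1.11, −0.39, 0.12 and 1.00, with genes at 0 counts taken at their bound (0 as fitted for maturation). For tMCAO brain against sham blood, the counts higher and lower were 7 and 1 for type 1, 4 and 1 for type 2, 2 and 0 for plasmacytoid, 9 and 0 for maturation and 5 and 2 for partners, beside 8.01% higher and 2.62% lower over all genes tested. The medians were 2.98, 2.05, 1.48, 1.80 and 2.83. Where edgeR called no gene of a list lower, 0 to 2 were lower at an unadjusted p under 0.05 and 0 to 1 by DESeq2. In either direction, 4938 of 16657 genes passed that unadjusted threshold for tMCAO blood against sham blood (edgeR). For tMCAO brain against sham blood 5034 did.

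The nearest genes in pattern were found for each of the 10 by the smallest root mean square difference of centred log2 CPM over the 6 libraries. Fscn1 and Ccl22 were each other's nearest gene of all those tested, at 0.36. The next for both were Il12b, a subunit of the cytokines interleukin-12 and interleukin-23 (0.39 from Fscn1 and 0.42 from Ccl22), and Cacnb3 (0.47 and 0.62). Il12b had 61.2 and 325 CPM in the brain libraries and 0 in all 4 blood libraries. Fscn1, Ccl22 and Il12b were all higher in library 2 of tMCAO brain than in library 1 and at or near 0 in blood.

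Ccl17 was nearest to Dennd2a, Gpat3 and Steap3 (0.22 to 0.36), and Batf3 to Opn3, Pnp2 and Slc16a3 (0.17 to 0.21). Cd83 was nearest to Serpine2 (0.23), while its next neighbours Syngr1 and Gem were far off (0.99 and 1.03). Siglech had Hpgds, Nav3 and Colec12 (0.57 to 0.67), and Zbtb46 had Abhd3, Ctnnal1 and Rab30 (0.32 to 0.37). The nearest to Flt3 were Slco5a1, Ptn and the myelin gene Mobp (0.37 to 0.47). Those nearest to Xcr1 included the glutamate transporter gene Slc1a2 and Mt3, genes abundant in astrocytes (0.48 and 0.50). For Clec9a they were Kit, Slc4a5 and Pcolce (0.47 to 0.50). With 6 libraries in 3 groups, many genes share a pattern, and nearness is a description of these libraries.

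The 10 genes together took 0.241% and 0.507% of all counts in the brain libraries, 0.00407% and 0.00383% in the libraries of tMCAO blood, and 0.00501% and 0.00682% in the sham libraries. Without Cd83, the other 9 took 0.0288% and 0.0947% in the brain libraries, 0.00374% and 0.00298% in the libraries of tMCAO blood, and 0.00118% and 0.00155% in the sham libraries. Monocyte and macrophage markers summed to 2.84% and 0.977% in the brain libraries, 3.19% and 1.31% in the libraries of tMCAO blood, and 0.731% and 0.570% in the sham libraries. The 5 Treg markers summed to 0.00555% and 0.0406% of counts in the brain libraries, 0.0135% and 0.0911% in those of tMCAO blood, and 0.151% and 0.150% in the sham libraries. Neutrophil markers (6 genes) summed to between 0.00204% in sham blood and 0.710% in library 2 of tMCAO blood, B cell markers to at most 0.0377% and NK cell markers to at most 0.0356%, both in library 2 of tMCAO brain. Red cell transcripts (6 genes) took at most 8.06e-05% in the brain libraries and 0.107% and 3.80% in those of tMCAO blood, against 15.0% and 16.3% in the sham libraries. The sum of the monocyte and macrophage list was high in library 1 of both tMCAO groups, mostly from Lyz2. Lyz2 gave 501310 of its 562994 counts in tMCAO brain and 399146 of 615090 in tMCAO blood. Not all of the list followed, as 4 of the 12 genes were higher in library 2 of tMCAO brain. Ear2 had 178 and 342 CPM in the libraries of tMCAO blood.

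**Figure D5:**
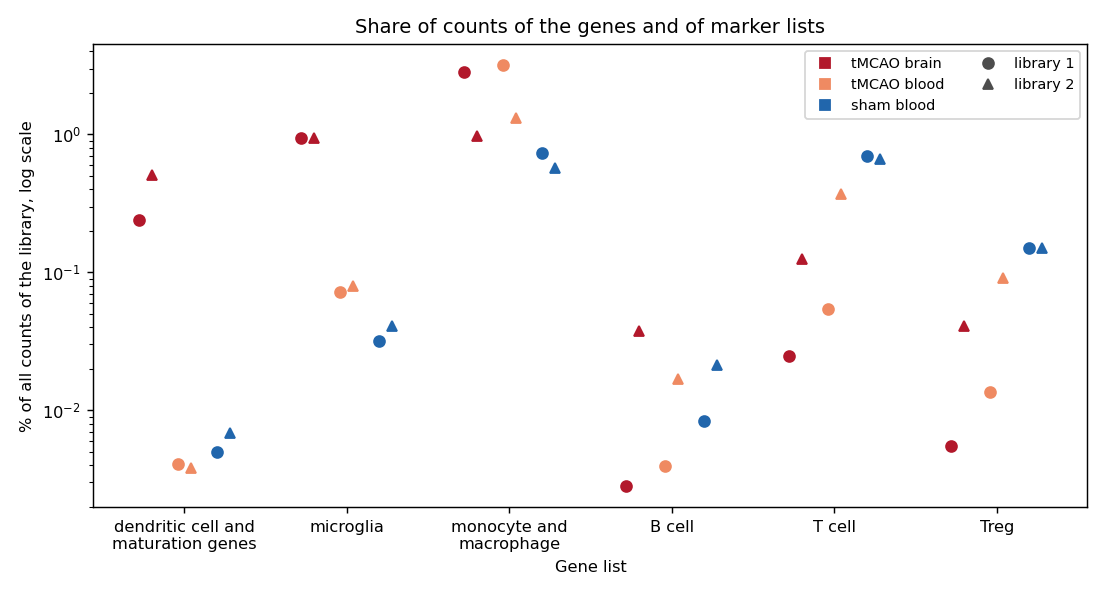
Share of all counts (%, log scale) taken by the 10 genes and by 5 marker lists in each library, with tMCAO brain in red, tMCAO blood in orange and sham blood in blue, a circle for library 1 and a triangle for library 2. The 10 genes and the microglia list are highest in both brain libraries, the T cell and Treg lists in both sham blood libraries, and the monocyte and macrophage list in library 1 of both tMCAO groups.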

How the data were processed

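RNA from sorted cells was amplified with a SMART-Seq low-input kit and sequenced after Nextera XT tagmentation, paired-end at 75 bp, per the labels' protocols. The authors deposited raw counts per gene, obtained with HTSeq 0.11.2 and STAR, whose version is not given, on the build GRCm38, per the submitters' processing notes. How strand and multiply mapped reads were handled is not given in the sources used here. Without molecular identifiers, intervals and floors reflect counting error alone.

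Low genes were removed by filterByExpr (minimum count 10), libraries were TMM-scaled, and edgeR 4.0.16 (R 4.3.3) gave quasi-likelihood tests, all 6 libraries in 1 fit with 3 residual degrees of freedom, Benjamini-Hochberg adjusted within a comparison. DESeq2 1.42.0, DESeq2 size factors, no filter, only the 2 groups compared, a replicate block, raw totals and leaving out libraries were alternatives. Libraries within tMCAO brain, tMCAO blood and sham blood differed beyond counting noise, with chi-square over degrees of freedom at 204, 219 and 25.3. Symbols were matched to GENCODE M21 (97.2% of 51361) for coordinates and exon lengths, and promoters came from RefSeq, with 9 of the 10 genes matched and Cd83 not. Where a group had 0 counts, folds are bounds over 3 counts in that group. They use the pooled counts of both libraries of the other group, so a single library can lie below them. Pattern distances used log2 of CPM plus 0.5.

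The 10 genes and all lists were chosen with earlier results of these data known. Named genes were the 10, up to 4 called genes of each related list by adjusted p for tMCAO brain against tMCAO blood, and the 3 nearest in pattern to each of the 10, leaving out predicted genes and antigen receptor segments. One such gene is not reported here. Others are said to be chosen after their values were seen. Marker lists covered microglia, monocytes and macrophages, B cells, T cells, Tregs, neutrophils, NK cells and red cells.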

Additional observations from a re-analysis of the deposited data

How the results depend on the processing

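Both the number of called genes and several changes moved with the processing. For tMCAO brain against tMCAO blood, 816 genes and 5 of the 10 were called. The numbers were 3598 and 8 with no filter, 3451 and 8 by DESeq2, 33 and 1 with only the 2 groups, 2932 and 8 without library 1 of both tMCAO groups (added after seeing the data), and 30 to 273 and 1 to 4 leaving out 1 library. Between tMCAO blood and sham blood, 1246 and 1 became 3611 and 5, 3806 and 3, and 3577 and 2 under the same settings bar the 2-group fit, and 0 to 1455 and 0 to 2 leaving out 1 library. For tMCAO brain against sham blood, 1772 and 5 became 4458 and 10, 4007 and 10, and 4242 and 10, and 0 to 2407 and 0 to 6. The edgeR fits with no call left out library 1 of tMCAO blood or a sham library, and had 2572 to 4003 genes at an unadjusted p under 0.05. The replicate block called 803, 1318 and 1977 genes and 6, 1 and 6 of the 10, adding Zbtb46 in both brain comparisons (adjusted p = 0.0216 and 0.0115, edgeR). Whether libraries of the same number are paired is not given. Deviations of library 1 from library 2 correlated at 0.333 between tMCAO brain and tMCAO blood. The correlation was −0.0433 between tMCAO brain and sham blood and −0.093 between tMCAO blood and sham blood. These values do not settle it.

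Signs turned for Ccl17 in tMCAO brain against tMCAO blood (2.84 without library 1 of both tMCAO groups, −1.94 to 2.69 leaving out 1 library) and Batf3 (−0.025 without library 2 of tMCAO blood, and up to 0.37). In tMCAO blood against sham blood they turned for Clec9a (0.47 with the block, 0.16 without both libraries 1, −0.98 to 1.63 leaving out 1), Zbtb46 (0.31, −0.86 to 0.81) and Xcr1 (−1.44 to 0.67). The cause was not tested. Fscn1 without library 2 of sham blood and Ccl22 without library 1 of tMCAO blood had no counts in that comparison and gave no value.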
